A study of Mus musculus with 24 samples.

Results

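The genes examined here build the machinery that docks, primes and fuses secretory vesicles: the SNARE proteins, the proteins that bind and take apart SNARE complexes, the synaptotagmins, Doc2 proteins and complexins, the priming and active zone scaffolds, and the exocyst. They are the rows of the count table whose mouse gene symbol begins with Syt, Sytl, Stx, Stxbp, Vamp, Snap, Cplx, Rims, Ppfia or Exoc followed by a digit, begins with Unc13 or Doc2, or is Napa, Napb, Napg, Nsf, Cadps or Cadps2. The rule uses names only, but the members were chosen with earlier results of these data known. The rule took 75 of the 12310 genes in the table, and all 75 passed the filter on low counts. It also took Stxbp3-ps, a pseudogene, and Snap91, which encodes a clathrin assembly protein, and both are given apart as other. MIN6 cells, a mouse insulinoma line used as a model of the pancreatic beta cell, wild type by their label, were kept in medium with 5.6 mM glucose and either received 50 µM verapamil, a blocker of L-type calcium channels, for 24 h, or were left untreated as control. RNA-seq counts of 12 control and 12 verapamil libraries were compared, in 4 experiment sets of 3 libraries per group. All libraries came from the same cell line, and sources differ on whether the 12 of a group are independent experiments, so any p-value here reflects library-to-library spread, which may in part be technical.

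In beta cells, insulin granules fuse with the plasma membrane when the R-SNARE of the granule (VAMP) zips into a bundle with the Q-SNAREs of the target membrane, a syntaxin and SNAP25. Munc18 proteins (Stxbp genes) and Munc13 proteins (Unc13 genes) prepare the syntaxin. Those synaptotagmins and Doc2 proteins that bind calcium trigger fusion, and complexins hold the assembled bundle. The ATPase NSF and its SNAP adaptors take the bundle apart again, while liprins, RIM proteins and the exocyst place vesicles at the site of release. In these libraries, members of this machinery changed in both directions with verapamil. Syt5, Syt7 and Napa rose, and Doc2b, Syt1, Ppfia2, Sytl4 and Syt9 fell. Of these, Syt7 lost its call in a fit that allowed for base composition and transcript length.

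In the edgeR quasi-likelihood test, with p-values adjusted over all genes (adjusted p under 0.05), 22 of the 75 members were higher in verapamil, which is 29.3%, and 21 were lower, which is 28.0%. Among all 12306 genes tested, 31.2% were higher and 31.6% were lower, so both shares of the members lay close to the background. The median log2 fold change was -0.07 over the members and -0.003 over all genes tested. The largest rise was 0.64 on the log2 scale (Syt5), whereas 4 members fell by more than 1 (Doc2b, Syt1, Ppfia2 and Stxbp5l). When the counts were summed per experiment set, giving 4 values against 4, 14 members were higher (18.7%) and 16 lower (21.3%), beside 24.4% and 17.3% of all genes. With groups read library by library, 2 members (Syt5 and Napa) had all 12 verapamil values above every control value, beside 4.95% of all genes, and 4 (Syt9, Sytl4, Ppfia2 and Doc2b) had all 12 below, beside 5.18%.

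**Figure D1:**
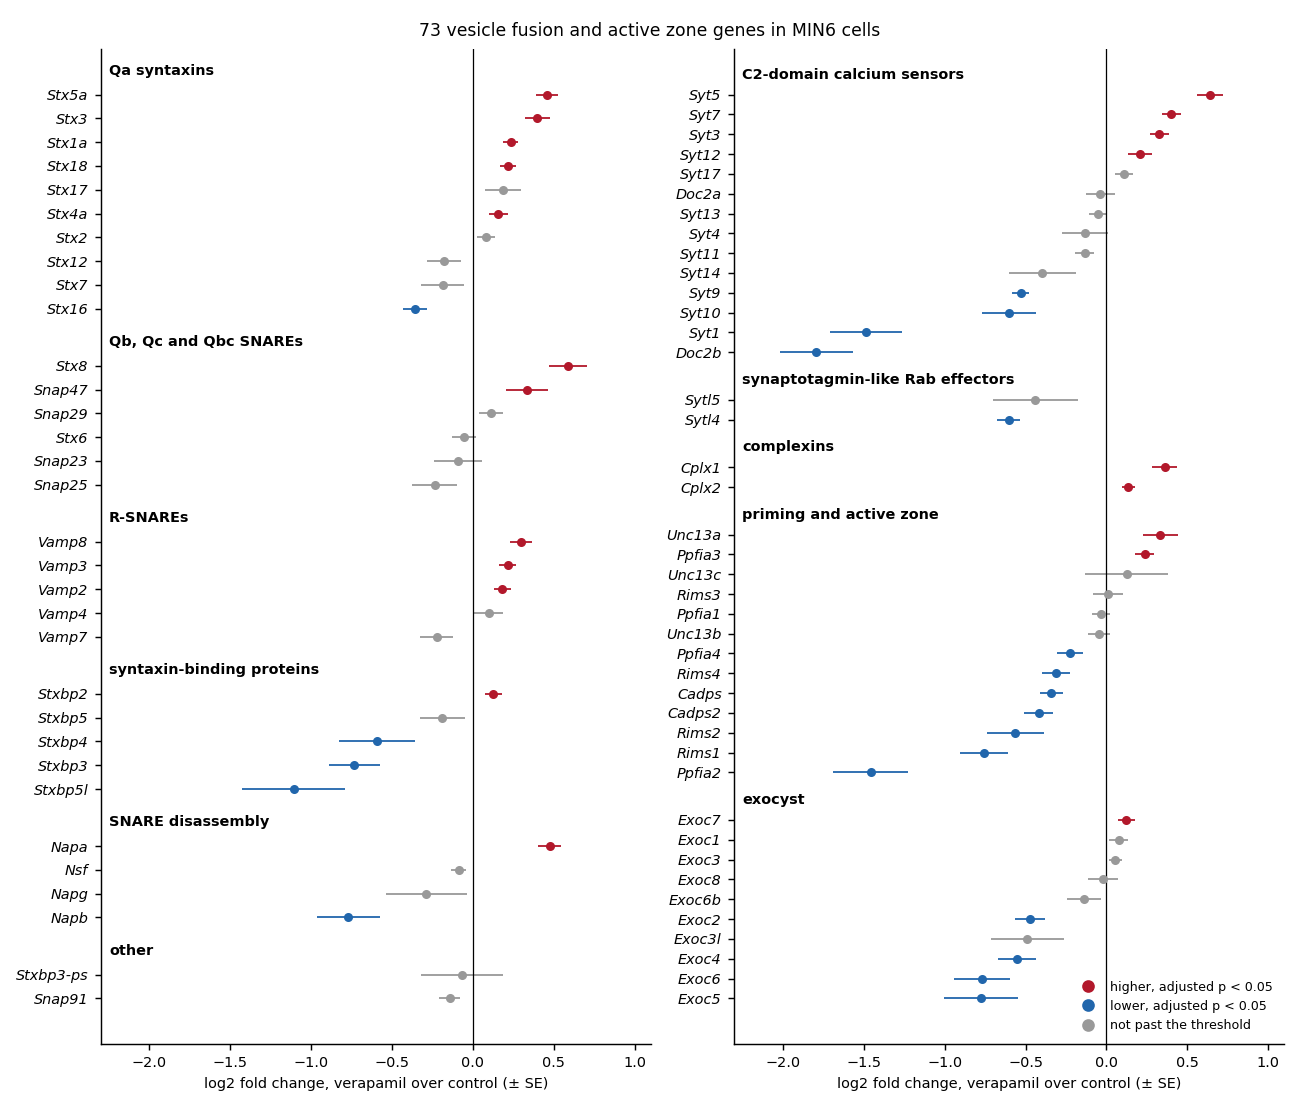
Log2 fold change of 73 members, verapamil over control, with its standard error (edgeR, 12 libraries per group), grouped by role, with red for 21 members called higher, blue for 21 called lower and grey for 31 that did not pass. The 4 largest falls (Doc2b, Syt1, Ppfia2 and Stxbp5l) lie beyond -1, while no member shown rose by more than 0.64.

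Library totals ranged from 12590476 to 44806556 counts. The biological coefficient of variation was 0.102 in control and 0.275 in verapamil libraries, and base composition moved with the larger spread. Across genes, the correlation between a library's log2 deviation from the control mean and transcript GC content was -0.183 to 0.164 in control libraries, 0.489 to 0.643 in the verapamil libraries of sets 2 and 3, and 0.0392 to 0.364 in those of sets 1 and 4. The verapamil library headed V11 stood apart by its correlation with transcript length (-0.592), and it held the lowest or highest verapamil value of 32 of the 75 members (42.7%) and of 39.0% of all genes. The members called lower had a median transcript GC content of 46.4% and length of 4361 bases, the members called higher 54.5% and 2141 bases, and all genes tested 50.5% and 2557 bases. A fit with each library's GC and length slopes as covariates is therefore given beside the members whose call it changes. Of the beta cell markers, Ins2 fell from 1318 ± 160 to 635 ± 116 CPM (mean ± SD). CPM are read counts scaled to library size by TMM and to a fixed total. Slc2a2, Iapp and Neurod1 also fell, with log2 fold changes of -0.84, -0.85 and -0.52. Mafa, the only one of the 8 called higher, rose from 697 to 1260.0 CPM, and Ins1, Pdx1 and Nkx6-1 were not called. The summed level of the 8 beta cell markers was 2851 to 3800.0 CPM in control and 2648 to 3452 CPM in verapamil. Gcg, the alpha cell hormone gene, was at 174 to 198 CPM in control and 176 to 333 CPM in verapamil. The 5 neuronal markers measured of 7 listed summed to 68.5 to 80.1 CPM in control and 70.95 to 89.8 CPM in verapamil. The count table held none of the listed markers of delta, PP, acinar, endothelial, fibroblast and immune cells, so their levels could not be read. In bulk RNA, fewer cells of a type and less RNA per cell cannot be told apart.

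The promoter windows of the members without overlap between the groups are shown for the 4 that the RefSeq table (build GRCm38.p6) holds, since these members carry the clearest separation. Each runs 5′ to 3′ on the gene's strand from 250 bases before to 50 bases after the annotated start. Capitals mark 3 motifs searched on both strands, the CRE (TGACGTCA), the GC box (GGGCGG, and its complement CCGCCC) and the E-box (CACGTG).
Napa chr7:16098330-16098629 (+ strand): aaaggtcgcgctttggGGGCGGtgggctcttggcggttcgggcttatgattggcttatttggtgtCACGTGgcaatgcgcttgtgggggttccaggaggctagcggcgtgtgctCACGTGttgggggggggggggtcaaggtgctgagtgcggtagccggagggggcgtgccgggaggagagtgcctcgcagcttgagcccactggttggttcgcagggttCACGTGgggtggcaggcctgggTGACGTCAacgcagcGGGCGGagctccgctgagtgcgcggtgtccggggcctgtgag
Syt9 chr7:107370540-107370839 (+ strand): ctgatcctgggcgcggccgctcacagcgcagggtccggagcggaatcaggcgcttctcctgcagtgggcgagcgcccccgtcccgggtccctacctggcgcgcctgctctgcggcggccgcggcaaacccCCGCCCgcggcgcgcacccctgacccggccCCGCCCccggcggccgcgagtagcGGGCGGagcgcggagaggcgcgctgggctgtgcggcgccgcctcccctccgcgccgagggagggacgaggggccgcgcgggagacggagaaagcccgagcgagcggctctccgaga
Sytl4 chrX:133981763-133982062 (- strand): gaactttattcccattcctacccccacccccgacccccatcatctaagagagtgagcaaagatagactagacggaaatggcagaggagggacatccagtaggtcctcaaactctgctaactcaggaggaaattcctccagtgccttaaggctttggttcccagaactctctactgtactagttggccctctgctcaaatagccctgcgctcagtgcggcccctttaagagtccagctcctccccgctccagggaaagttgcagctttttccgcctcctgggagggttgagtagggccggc
Ppfia2 chr10:106470060-106470359 (+ strand): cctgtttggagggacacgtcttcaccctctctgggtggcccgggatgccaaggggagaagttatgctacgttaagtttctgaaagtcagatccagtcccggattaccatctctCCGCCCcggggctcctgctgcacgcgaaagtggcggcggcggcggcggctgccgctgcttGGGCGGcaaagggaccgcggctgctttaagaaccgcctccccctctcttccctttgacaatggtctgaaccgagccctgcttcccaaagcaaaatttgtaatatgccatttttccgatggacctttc

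The Napa window held 1 CRE, 2 GC boxes and 3 E-boxes, the Syt9 window 3 GC boxes, the Ppfia2 window 2 GC boxes, and the Sytl4 window none of these letters. Their GC content was 67.0%, 79.3%, 58.3% and 54.7%, respectively. The table matched 56 of the 75 members, with 67 windows, among 32851 windows of all genes. The CRE stood in 2.99% of the members' windows (those of Napa and Stxbp3) and in 1.79% of all windows. Its half-site TGACG, which lies inside the CRE, stood in 26.9% against 20.8%, the GC box in 68.7% against 35.7%, and the E-box in 19.4% against 7.15%. The 13 E-box windows belonged to 10 members, and Exoc1 alone gave 4 of them. The members' windows had a median GC content of 61.3%, and all windows 52.7%. The half-site stood in the windows of 8 of 16 members called higher and 3 of 18 called lower. These matches describe letters in the windows and were not tested.

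**Figure D2:**
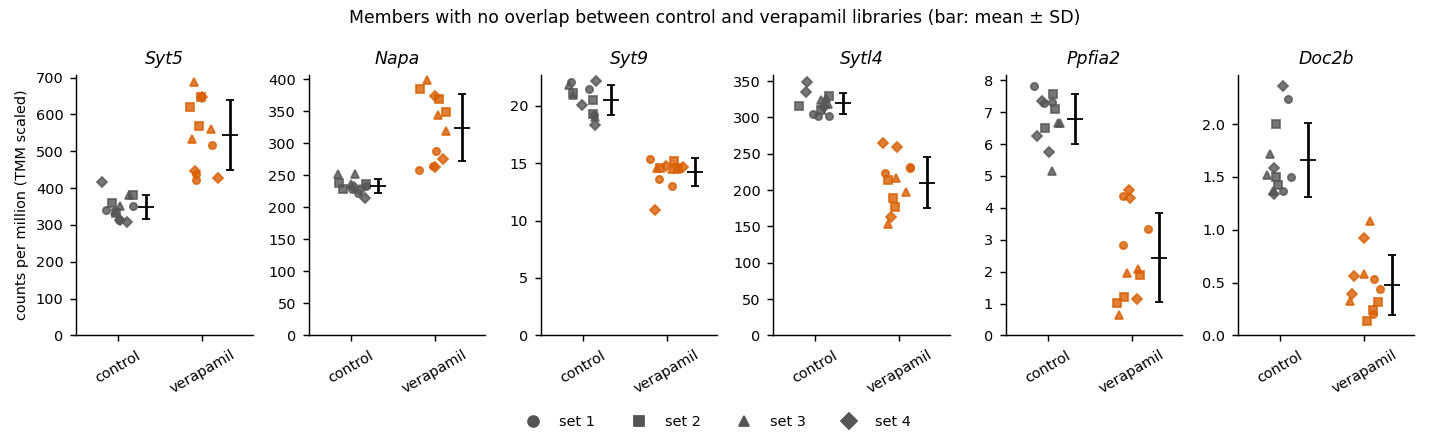
CPM of the 6 members whose control and verapamil libraries did not overlap, with 12 libraries per group, symbols for the 4 experiment sets, and bars for mean ± SD. Each vertical axis starts at 0. Syt5 and Napa lie higher in every verapamil library, and Syt9, Sytl4, Ppfia2 and Doc2b lie lower in every one.

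Among the 11 Qa syntaxins, the SNAREs that form the receptor on the target membrane, 5 were higher, 1 was lower and 5 did not pass the test. Stx1a, the plasma membrane syntaxin of insulin granule fusion, ranged from 99.9 to 120 CPM in control (median 109) and from 110 to 142 CPM in verapamil (median 127). The groups overlapped, 8 verapamil libraries being above the highest control. The difference was 0.23 on the log2 scale (SE 0.048, adjusted p = 0.000264). With the GC and length covariates the change of Stx1a was 0.07 (adjusted p = 0.163). Stx5a, the most abundant member of the group per kilobase of transcript and a syntaxin of traffic between endoplasmic reticulum and Golgi, had control values of 114 to 149.6 CPM (median 136) and verapamil values of 139 to 222 CPM (median 189.6), with 11 libraries above every control. This is a log2 fold change of 0.46 (SE 0.068, adjusted p = 4.98e-06). Stx3, a syntaxin also found on insulin granules, rose by 0.40, and by 0.64 with the covariates. Stx18 of the endoplasmic reticulum rose by 0.22 and Stx4a, another plasma membrane syntaxin in beta cells, by 0.16. With the offset neither was called (-0.0066 and -0.095), while both were with the covariates (0.16 and 0.28). Stx4a was not called on summed counts (adjusted p = 0.158). Of the exon bases of Stx18, 19.8% overlap Gm42858 and 12.5% overlap Nsg1, both on the other strand. Stx16, a syntaxin of the trans-Golgi network, was the syntaxin that fell (log2 fold change -0.36, adjusted p = 0.00032), and its change was -0.06 with the covariates (adjusted p = 0.42). Stx2, Stx17, Stx12 and Stx7 had log2 fold changes between -0.19 and 0.18, and Stx17 was called higher with the covariates (0.61, adjusted p = 3.65e-06). The summed level of the group was 237 ± 6.9 CPM per kb in control and 288 ± 13.5 CPM per kb in verapamil (SD), and the ranges over libraries did not meet (229 to 247 against 266 to 310.2 CPM per kb). Stx5a alone gave 76.5 CPM per kb of this mean level in control and 105 CPM per kb in verapamil.

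Of the 6 Qb, Qc and Qbc SNAREs, which complete the receptor, 2 were higher and 4 did not pass. Snap25, the plasma membrane partner of Stx1a and 89.9% of the group's level per kb in control, ranged from 293 to 352 CPM in control (median 315) and from 139 to 377 CPM in verapamil (median 280.3). The verapamil values spread to both sides of control, with 6 libraries below and 2 above every control library. Over all libraries the log2 fold change was -0.24 (SE 0.14, adjusted p = 0.133), and its differences between experiment sets are given further on. Stx8, an endosomal SNARE, rose by 0.59 (adjusted p = 0.00018), from 7.99 ± 1.5 to 12.0 ± 2.7 CPM (SD), and by 0.25 with the covariates (adjusted p = 0.116). Snap47 rose by 0.33 from a low level (1.53 CPM), and 11.6% of its exon bases overlap Jmjd4 on the other strand. Its change was -0.070 with the covariates (adjusted p = 0.767), 0.11 with the offset, and not called on summed counts (adjusted p = 0.108). Snap23, a Qbc SNARE that also acts at the plasma membrane, had a log2 fold change of -0.09, Snap29 of 0.11 and Stx6 of -0.05. With the covariates, Snap23 (0.47), Snap29 (0.33) and Snap25 (0.22) were called higher.

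Of the 5 R-SNAREs, the vesicle partners of these syntaxins, 3 were higher, of which Vamp2 turned lower with the GC and length offset, and 2 did not pass. Vamp2, the R-SNARE of insulin granules, ranged from 238 to 261 CPM in control (median 249) and from 239 to 336.5 CPM in verapamil (median 285.5), with 9 libraries above every control. Its log2 fold change was 0.18 (SE 0.051, adjusted p = 0.00375), yet it was -0.081 with the GC and length offset (adjusted p = 0.0182) and -0.025 with the covariates. On summed counts Vamp2 was not called (adjusted p = 0.0820). Vamp8, an R-SNARE of granules and endosomes, rose by 0.30 (adjusted p = 0.000487), and its change was 0.02 with the covariates (adjusted p = 0.775). Vamp3, a close relative of Vamp2, rose by 0.21 and kept this size (0.20) with the covariates. Vamp4 and Vamp7, of the trans-Golgi network and lysosomes, had log2 fold changes of 0.10 and -0.23. Vamp4 was called higher with the covariates (0.28, adjusted p = 0.026). Vamp2 made up 50.1 ± 0.79% of the R-SNARE level per kb in control and 48.6 ± 2.5% in verapamil (SD).

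Of the 6 syntaxin-binding genes, 2 were higher, 3 were lower and 1 did not pass. Stxbp5l, which encodes tomosyn-2, a brake on SNARE assembly, ranged from 41.6 to 58.5 CPM in control (median 46.4) and from 4.27 to 47.0 CPM in verapamil (median 12.9). The verapamil libraries of sets 2 and 3 and V11 lay below 13 CPM, V10 and V12 within the control range, and those of set 1 between 22.7 and 45.05 CPM. Stxbp5l had a log2 fold change of -1.11 (SE 0.32, adjusted p = 0.00443), -1.08 on summed counts (adjusted p = 0.0633) and 0.10 with the covariates (adjusted p = 0.365). Stxbp3 (Munc18c, the partner of Stx4) fell by 0.73 from 4.09 CPM, with -0.28 under the covariates (adjusted p = 0.204), and part of its sequence is 98.9% identical to Stxbp3-ps over 757 bases, so their counts are uncertain. Stxbp2 (Munc18-2) rose by 0.13, but its change was -0.060 with the covariates (adjusted p = 0.272), and it was not called on summed counts. Stxbp5 (tomosyn-1) had a log2 fold change of -0.19 and was called higher with the covariates (0.38, adjusted p = 8.98e-05). Stxbp4, a binder of Stx4, was called lower at under 1 CPM in both groups (0.841 and 0.561 CPM), but was not called with the covariates (-0.36). Stxbp3-ps was also under 1 CPM (0.903 and 0.839 CPM).

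The group of C2-domain calcium sensors holds the Syt and Doc2 genes by name, and not every member senses calcium (Syt12 lacks calcium-binding residues). Its 14 genes split evenly, with 4 higher, 4 lower and 6 that did not pass. Syt7, the high-affinity synaptotagmin of insulin granules, made up 77.8% of their level per kb in control and ranked 28th of all genes tested by that level. It ranged from 1848 to 2034 CPM in control (median 1953) and from 1830.0 to 3013 CPM in verapamil (median 2624). In verapamil, 11 libraries lay above every control library and V11 below all of them. The log2 fold change of Syt7 was 0.40 (SE 0.057, adjusted p = 2.68e-06), 0.33 with the covariates and 0.13 with the GC and length offset (adjusted p = 0.105). Syt5, a synaptotagmin of dense-core vesicles, ranged from 307 to 416.5 CPM in control (median 345.5) and from 422 to 689 CPM in verapamil (median 547). The lowest verapamil value exceeded the highest control value, and the log2 fold change was 0.64 (SE 0.080, adjusted p = 4.86e-07). The change of Syt5 was 0.38 with the offset and 0.30 with the covariates, both called.

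Syt9, a fast calcium sensor of secretory granules located at chr7:107370728-107548656 on the forward strand, ranged from 18.4 to 22.2 CPM in control (median 20.7) and from 10.9 to 15.4 CPM in verapamil (median 14.55). No verapamil library reached the control range. Syt9 fell with a log2 fold change of -0.53 (SE 0.053, adjusted p = 1.15e-08), and it was -0.59, -0.47, -0.50 and -0.59 in experiment sets 1 to 4. The change of Syt9 was -0.49 with the GC and length offset, -0.50 with the covariates and -0.54 on summed counts. Syt1, the main calcium sensor of fast release in neurons, was far lower in level, at 1.04 to 2.21 CPM in control (median 1.87) and 0.09 to 1.20 CPM in verapamil (median 0.66). In verapamil, 11 libraries lay below every control, with a log2 fold change of -1.49 (SE 0.22, adjusted p = 5.55e-06) and of -0.74 with the covariates (adjusted p = 0.0142). Doc2b, a soluble C2-domain sensor linked to insulin secretion (chr11:75768966-75796049, reverse strand), ranged from 1.34 to 2.36 CPM in control (median 1.51) and from 0.139 to 1.08 CPM in verapamil (median 0.416). The ranges did not meet, and the log2 fold change of -1.79 (SE 0.22, adjusted p = 4.64e-07) was -1.82 with the offset and -1.69 with the covariates. Both genes lie near the lower end of what was measured, and 5.53% of the exon bases of Doc2b overlap Gm12339 on the other strand. The related Doc2a averaged 2.94 CPM in control libraries and 2.87 CPM with verapamil, but 39.35% of its exon bases overlap Ino80e on the other strand.

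Syt3, another calcium-binding member, rose by 0.33 and Syt12, which lacks calcium-binding residues, by 0.21, and neither was called with the covariates (0.10 and 0.03). Syt12 was also not called on summed counts (adjusted p = 0.105), and 17.15% of its exon bases overlap A930001C03Rik on the other strand. Syt10 fell by 0.61 from 3.24 CPM, but its change was -0.05 with the covariates and it was not called on summed counts (adjusted p = 0.0704). Of the members that did not pass, Syt13 (138 ± 7.7 CPM in control, 133 ± 15.0 CPM in verapamil), Syt11 and Syt17 had log2 fold changes of -0.05, -0.14 and 0.11. Without V11, Syt17 was called higher (0.14, adjusted p = 0.00761) and Syt11 lower (-0.10, adjusted p = 0.0417). Syt4 and Syt14 varied widely in verapamil. Syt14 ranged from 40.1 to 49.2 CPM in control and from 9.33 to 53.0 CPM in verapamil, and Syt4 from 27.8 to 34.4 and from 14.75 to 41.9 CPM. Their log2 fold changes were -0.40 (adjusted p = 0.0958) and -0.13 (adjusted p = 0.424), and both were called higher with the covariates, at 0.46. Of the exon bases of Syt4, 14.5% overlap Gm26658 on the other strand. The summed level of the Syt and Doc2 group was 1430.0 to 1523 CPM per kb in control and 1547 to 2279 CPM per kb in verapamil, and it consisted mostly of Syt7.

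Sytl4 encodes granuphilin, a Rab27 effector that docks insulin granules by binding Stx1a, and it lies at chrX:133936385-133981812 on the reverse strand. It ranged from 302 to 349 CPM in control (median 317) and from 154 to 264 CPM in verapamil (median 215.5), without overlap. Sytl4 had a log2 fold change of -0.60 (SE 0.072, adjusted p = 2.08e-07), -0.31 with the offset and -0.30 with the covariates. The lower values were present in each experiment set (-0.42, -0.74, -0.76 and -0.54 in sets 1 to 4). Sytl5, the other member of its family, had a log2 fold change of -0.44 (adjusted p = 0.15) at 4.49 CPM in control, and with the covariates it was called higher (0.49, adjusted p = 0.0185).

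Both complexins, which clamp and support the assembled SNARE bundle, were higher, but with the covariates neither was called, at 0.04 for Cplx2 and -0.0035 for Cplx1. Cplx2 ranged from 375 to 417 CPM in control (median 397) and from 376 to 483 CPM in verapamil (median 427), with 9 libraries above every control. Its log2 fold change was 0.14 (SE 0.040, adjusted p = 0.00551), and it was not called on summed counts (adjusted p = 0.0913). Cplx1 ranged from 47.5 to 61.05 CPM in control (median 55.1) and from 53.4 to 94.5 CPM in verapamil (median 73.6), with 8 libraries above every control. Cplx1 had a log2 fold change of 0.36 (SE 0.080, adjusted p = 0.000514).

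Of the 13 priming and active zone genes, 2 were higher, 7 were lower and 4 did not pass. Unc13a, which encodes the priming factor Munc13-1, ranged from 80.2 to 96.25 CPM in control (median 85.2) and from 39.8 to 119 CPM in verapamil (median 113). The 11 verapamil libraries other than V11 lay between 110.2 and 119 CPM, above every control library, and V11 lay at 39.8 CPM. The log2 fold change of Unc13a was 0.33 (SE 0.11, adjusted p = 0.0105) over all libraries and 0.41 without V11 (adjusted p = 8.02e-10). It was 0.49 with the covariates. Unc13b (Munc13-2) and Unc13c (Munc13-3) had log2 fold changes of -0.05 (adjusted p = 0.56) and 0.12 (adjusted p = 0.688). Both were called higher with the covariates, at 0.19 (adjusted p = 0.00187) and 1.06 (adjusted p = 1.05e-06), and with the offset, at 0.19 and 0.53, whereas in set 2 alone Unc13c was called lower (-0.95, adjusted p = 0.0356).

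Of the RIM scaffold genes, Rims1, Rims2 and Rims4 were called lower, although Rims2 was called higher with the covariates. Rims2, the RIM gene that beta cells use in granule docking, ranged from 65.4 to 81.1 CPM in control (median 71.3) and from 20.9 to 78.2 CPM in verapamil (median 42.1), with 8 libraries below every control. Its log2 fold change was -0.56 (SE 0.18, adjusted p = 0.00834), -0.55 on summed counts (adjusted p = 0.0896) and 0.19 with the covariates (adjusted p = 0.000338). Rims1 fell by 0.75 from 3.47 CPM and Rims4 by 0.31 from 16.6 CPM, and of these Rims4 was also called lower with the covariates (-0.46). Rims3 had a log2 fold change of 0.01.

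Cadps, which encodes CAPS1, a priming factor of dense-core granules, ranged from 176 to 202 CPM in control (median 189) and from 110.4 to 179 CPM in verapamil (median 150.1). In verapamil, 10 values were under the lowest control value. For Cadps the log2 fold change was -0.34 (SE 0.072, adjusted p = 0.000305) and -0.03 with the covariates (adjusted p = 0.545). Its relative Cadps2 fell by 0.42 and was likewise not called with the covariates (-0.11). The liprins, which scaffold the active zone, went apart. Ppfia1, the most abundant of the group per kb, ranged from 182 to 199 CPM in control (median 192) and from 131 to 212 CPM in verapamil (median 189), with a log2 fold change of -0.03 (SE 0.055, adjusted p = 0.592), but 0.13 with the covariates (adjusted p = 0.00451). Ppfia2 ranged from 5.15 to 7.82 CPM in control (median 6.89) and from 0.63 to 4.57 CPM in verapamil (median 2.01), with no overlap. The log2 fold change of Ppfia2 was -1.46 (SE 0.23, adjusted p = 1.38e-05) and -0.55 with the covariates (adjusted p = 0.00196), and 22.3% of its exon bases overlap Acss3 on the other strand. Ppfia3 rose by 0.24, but it was not called with the covariates (0.055, adjusted p = 0.403) or on summed counts (adjusted p = 0.0528). Ppfia4 fell by 0.23 and was called lower with the covariates as well (-0.24).

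The exocyst is the complex that tethers vesicles to the plasma membrane before SNAREs engage. Of its 10 genes, 1 was higher, 4 were lower and 5 did not pass. Exoc4, the most abundant per kb, ranged from 62.0 to 79.7 CPM in control (median 71.5) and from 28.0 to 66.7 CPM in verapamil (median 47.0), with 9 libraries below every control. This gave a log2 fold change of -0.55 (SE 0.12, adjusted p = 0.000365). Exoc5, Exoc6 and Exoc2 fell by 0.78, 0.77 and 0.47, and Exoc7 rose by 0.12. The fall of Exoc5 was not called on summed counts (adjusted p = 0.0979) or with the offset (0.044). Exoc7 was not called with the covariates (-0.012, adjusted p = 0.888), with the offset (0.012) or on summed counts (adjusted p = 0.195). The log2 fold changes of Exoc1, Exoc3, Exoc8 and Exoc6b lay between -0.14 and 0.08. Exoc3l, at 1.46 CPM in control, had a log2 fold change of -0.49 (adjusted p = 0.0614) and, without V11, of -0.72 (adjusted p = 0.0013). Of its exon bases, 14.4% overlap Gm20163 on the other strand. With the covariates, none of the 4 lower exocyst genes was called, and Exoc1 (0.28) and Exoc6b (0.29) were called higher.

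Among the 4 genes that take SNARE bundles apart, Napa, Nsf, Napb and Napg, 1 was higher and 1 lower. Napa, which encodes alpha-SNAP (chr7:16098458-16117975, forward strand), ranged from 215 to 253 CPM in control (median 232) and from 259 to 398.5 CPM in verapamil (median 332.5). The ranges did not meet, and the log2 fold change was 0.47 (SE 0.069, adjusted p = 4.22e-06), 0.30 with the offset and 0.16 with the covariates (adjusted p = 0.00363). Nsf, the ATPase that alpha-SNAP recruits, ranged from 49.5 to 63.5 CPM in control (median 54.5) and from 43.7 to 57.9 CPM in verapamil (median 52.1). The groups overlapped, with a log2 fold change of -0.09 (SE 0.047, adjusted p = 0.1). Napb, which encodes beta-SNAP, a close relative of alpha-SNAP best known from brain, fell by 0.77 from 27.5 CPM (adjusted p = 0.00158), and its change was 0.02 with the covariates (adjusted p = 0.915). Napg had a log2 fold change of -0.29. Snap91, the clathrin assembly gene, ranged from 57.1 to 67.6 CPM in control (median 62.2) and from 42.6 to 65.6 CPM in verapamil (median 58.6), with a log2 fold change of -0.14 (SE 0.065, adjusted p = 0.057) and, without V11, of -0.15 (adjusted p = 0.0456, called lower).

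Whether the effect of verapamil was the same in the 4 experiment sets was tested with the interaction of set and treatment in edgeR. It passed for 4 members, or 5.33%, beside 9.72% of all genes. For Snap25 the log2 fold change was 0.16 and 0.14 in sets 1 and 4 and -0.77 and -0.75 in sets 2 and 3 (interaction adjusted p = 0.00575). Its verapamil libraries lay between 320 and 351 CPM in set 1 and between 340.1 and 377 CPM in set 4, but between 148 and 221 CPM in set 2 and between 139 and 241 CPM in set 3. Thus every verapamil value of sets 2 and 3 was under the lowest control value, and no value of sets 1 and 4 was. Exoc5 (adjusted p = 0.0137), Exoc6 (0.0247) and Sytl5 (0.0213) also passed, with log2 fold changes of -1.40 to -1.68 in sets 2 and 3 and of -0.31 to 0.18 in sets 1 and 4. The verapamil libraries of sets 2 and 3 were also those with the highest correlations with GC content, and with the GC and length offset Snap25 passed the interaction test (adjusted p = 0.00505), while Exoc5, Exoc6 and Sytl5 did not. Within the sets alone, 17 and 9 members were called higher and lower in set 1 (13.7% and 14.0% of all genes), 19 and 27 in set 2 (26.3% and 30.9%), and 11 and 23 in set 3 (19.9% and 23.4%). In set 4, which holds V11, none was called (0.317% and 0.0894% of all genes), and at an unadjusted p under 0.05 in edgeR 4 members were higher (5.33%) and 5 lower (6.67%), beside 7.68% and 6.72% of all genes.

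**Figure D3:**
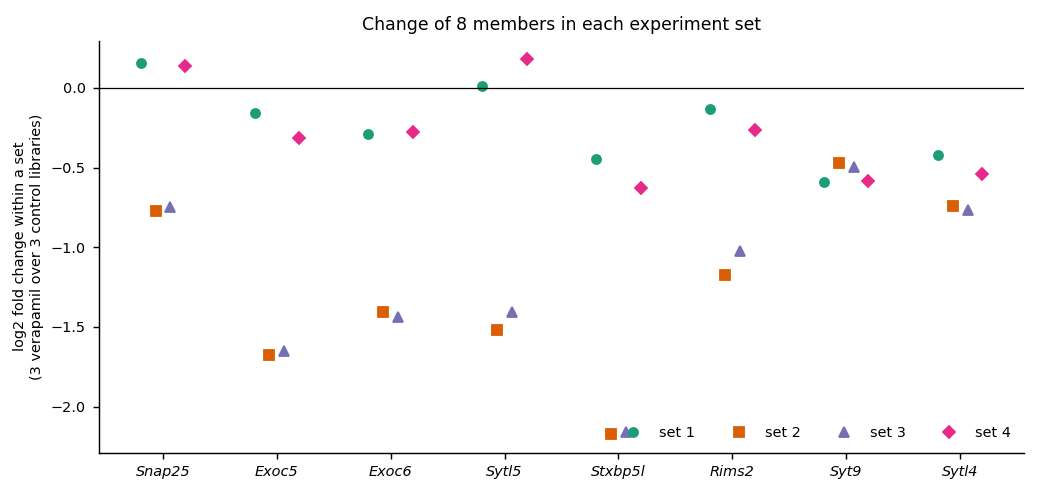
Log2 fold change of 8 members within each experiment set, 3 verapamil over 3 control libraries, with a colour and symbol for each set. Snap25, Exoc5, Exoc6 and Sytl5, whose effect differed between sets by the interaction test, have sets 2 and 3 far below sets 1 and 4, while the values of Syt9 lie between -0.59 and -0.47 in all 4 sets.

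Because base composition moved with the treatment, the members were also read from the fits that take it into account. With the GC and length offset, 23 members were higher (30.7%) and 22 lower (29.3%), beside 28.4% and 28.2% of all genes. Of the members called without the offset, 12 of the 22 higher and 18 of the 21 lower kept their call. With the covariates, 25 members were higher (33.3%) and 7 lower (9.33%), beside 21.2% and 14.1% of all genes. All 7 had been called lower before, while 10 of the 25 had been called higher before, and Rims2 turned from lower to higher. Adding the covariates gave the treatment term a variance inflation of 2. A stricter reading, chosen after the data were seen, kept members called in all 4 fits (no covariate, summed counts, offset, covariates) with the same direction in every set. It kept 6 higher members (among them Syt5, Stx5a, Stx3, Vamp3 and Napa) and 7 lower members (Doc2b, Syt1, Syt9, Ppfia2, Ppfia4, Rims4 and Sytl4). These are 8.0% and 9.33% of the members, beside 10.9% and 7.97% of all genes, so the shares of this stricter reading were close to the background.

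**Figure D4:**
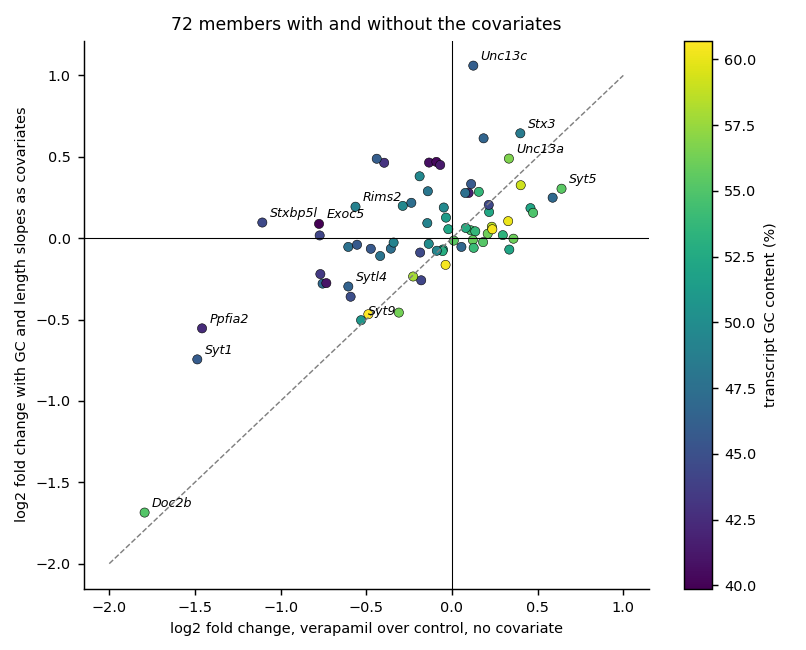
Log2 fold change of 72 members without (horizontal) and with (vertical) each library's GC and length slopes as covariates, coloured by transcript GC content, with a dashed line of equality (Vamp7, without a transcript sequence, is left out). Doc2b and Syt9 lie close to the line, whereas members of low GC content such as Stxbp5l (-1.11 and 0.10) and Exoc5 (-0.78 and 0.09) move up towards 0.

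Of 54 further genes of the fusion pathway that the naming rule does not take, 27 were higher and 10 lower. Among all genes tested, 31.2% were higher and 31.6% lower. The median log2 fold change was 0.18 over the 54 genes and -0.003 over all genes tested. On summed counts 19 of the 54 were higher and 5 lower, beside 24.4% and 17.3% of all genes. With the covariates 17 were higher and 5 lower, beside 21.2% and 14.1%. Of 15 SNAREs and Sec1/Munc18 proteins of other membranes, 10 rose and 2 fell. Use1, a SNARE of the endoplasmic reticulum, rose by 0.73 (71.7 to 119 CPM, adjusted p = 3.35e-07), and Bet1l, a Golgi SNARE, by 0.57. Of 18 vesicle membrane proteins and synapsins, 11 rose and 7 did not pass, and 2 of these were called lower under the offset and under the covariates. Sv2c, a vesicle glycoprotein, rose from 0.23 to 1.06 CPM (log2 fold change 2.16, adjusted p = 8.22e-06). It ranked 12306th of the 12306 genes tested by control level per kb, with a lowest count of 0. For Sv2c, 11 verapamil libraries lay above every control and 1 lay below. Of 21 granule Rabs, Rab effectors and scaffolds, 6 rose and 8 fell. Rimbp2, which ties RIM to calcium channels, ran 336 ± 16.8 CPM in control and 208 ± 25.4 CPM in verapamil (SD), without overlap. For Rimbp2 the log2 fold change was -0.69 (adjusted p = 5.28e-10), between -0.66 and -0.75 in the 4 sets. Rapgef4 (Epac2, a cAMP sensor of granule release) fell by 0.63, Pclo (the scaffold piccolo) by 0.60 and Scfd1, a Sec1/Munc18 protein of the Golgi, by 0.55, whereas Rab3d, a granule Rab, rose by 0.58. None of these 4 was called with the covariates, at -0.089 for Rapgef4, 0.081 for Pclo, -0.0225 for Scfd1 and 0.39 for Rab3d. Pclo was called higher with the offset (0.13, adjusted p = 0.00168), and Scfd1 was not called on summed counts (adjusted p = 0.175).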

How the data were processed

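Libraries were sequenced as paired ends. Per the labels and methods, the authors made raw read counts per gene with bcl2fastq 2.20, Trimmomatic 0.39, HISAT2 2.1.0 (GRCm38) and HTSeq 0.9.1. No strand setting or annotation release was named in them, and sources differ on the library kit. The authors' deposited edgeR columns (average log2 CPM, log2 fold change, a fold change ratio, p-value, adjusted p-value, and a score headed as log10 of the adjusted p) were not used. Experiment sets were read from the first digit of a sample's description. The 4 columns C11, C12, V11 and V12 fit the names of more than one sample each, so they carried no replicate number and fell to set 4 by elimination. Counts were filtered (edgeR 4.0.16 filterByExpr, minimum count 10, minimum total 15), TMM scaled and tested with the quasi-likelihood test and Benjamini-Hochberg adjustment over all genes, and the script was tested on simulated data. CPM per kb divides CPM by the median length of a gene's coding transcripts in GENCODE M21, and the offset fit removes natural spline trends (4 degrees of freedom). DESeq2 1.42.0, limma 3.58.1 voom and other settings were alternatives. Antisense overlaps and near-identical copies (blastn 2.17.0, at least 95% over 200 bases) were listed. Genes were named by a written rule: members past a log2 fold change of 1, the most abundant member of each role group, and a list of secretory core genes. The members and lists were chosen with earlier results of these data known. Replicate numbers did not pair the libraries, with correlations of same-numbered deviations from -0.0509 to 0.114. Depth limits members near 1 CPM, where the lowest count in a library was 2. Of the 75 members, 2 are counted but not reported here.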

Additional observations from a re-analysis of the deposited data

Results flagged for a closer look

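The effect of verapamil differed between the 4 experiment sets for 4 members by the interaction test in edgeR, with adjusted p-values of 0.00575 for Snap25, 0.0137 for Exoc5, 0.0213 for Sytl5 and 0.0247 for Exoc6. In Snap25, Exoc5 and Exoc6 the verapamil libraries of sets 2 and 3 were all lower than those of sets 1 and 4, and in Sytl5 they were so except that the lowest library of set 4 (2.23 CPM) lay under the highest of set 2 (2.32 CPM). All 4 have a transcript GC content below the median of all genes tested (39.9% for Exoc5, 43.4% for Exoc6, 46.0% for Sytl5 and 47.4% for Snap25, against 50.5%). Of the 4, Snap25 was the only one that also passed with the GC and length offset. Groups of 12 libraries were not examined for single outlying libraries by a critical value, and values without the library V11 stand beside the 4 members whose call it changed (Syt11, Syt17, Exoc3l and Snap91) and beside Unc13a.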

How the results depend on the processing

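The counts of members called higher (22) and lower (21) stayed within 1.5 times under DESeq2, RLE scaling, no filter, a 1 CPM filter, voom with sample weights, the replicate block by experiment set and the GC and length offset. Outside that range lay 14 higher on summed counts, 11 in set 3 alone and 0 in set 4 alone, and 9 lower in set 1 alone, 0 in set 4 alone and 7 with the covariates. Leaving out each set, or its verapamil libraries, gave 15 to 22 higher and 18 to 28 lower. The other pathway genes (27 higher, 10 lower) gave 14, 14 and 0 higher in sets 1, 3 and 4 alone and 17 with the covariates, and 5, 6 and 0 lower in those sets, 5 on summed counts and 5 with the covariates. Leaving out sets gave 19 to 27 higher and 6 to 11 lower, and without set 2 the count was 6. In set 4 alone, at an unadjusted p under 0.05, 3 of these genes were higher and 3 lower, 5.56% each beside 7.68% and 6.72% of all genes. Members differing between sets numbered 7 with the offset against 4 without, of which 1 was shared. Among the 22 genes the written rule names, a turn of direction was counted where the gene was called before or after. With the covariates the direction turned for Cplx1 (-0.0035), Ppfia1 (0.13), Rims2 (0.19), Snap25 (0.22), Stxbp5l (0.10) and Vamp2 (-0.025). With the offset it turned for Vamp2 (-0.081, and -0.0811 with the block added). In the sets alone it turned for Snap25 in set 1 (0.16) and for Unc13a in set 4 (-0.0015). Snap25 also had the other sign in set 4 alone (0.14), but it was called neither there nor over all libraries. Among the other 53 members, counted in the same way, the direction turned for 12 with the covariates and 8 with the offset (also with the block added). It turned for 5, 1, 1 and 3 in sets 1 to 4 alone, and for none under the other alternatives. The cause was not tested. Snap25 passed the test, lower, in 10 of its 26 alternatives and Snap91 in 11. In the 20 numbered libraries, the replicate block gave 19 higher and 27 lower against 20 and 23 without it. No same-numbered pair correlated best with its own number. V11 and the control library C9, each left out after seeing the data, gave 23 and 24, and 21 and 22, higher and lower. Members near 1 CPM rest on few reads, and the base composition trends of the verapamil libraries cannot be told apart from treatment where they move with it.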

Other observations

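The make-up of the role groups, as each member's share of its group's summed CPM per kb, was also read in each library, as a description without a test. Stxbp5l made up 4.10 to 5.74% of the syntaxin-binding level in control libraries and 0.385 to 3.77% in verapamil libraries. Exoc1 held 12.6 to 14.7% of the exocyst level in control and 15.75 to 20.4% in verapamil. Of the summed level of the Syt and Doc2 group, Syt9 held 0.327 to 0.40% in control and 0.169 to 0.217% in verapamil, and Syt13 2.30 to 2.80% and 1.62 to 2.04%. Syt13 did so at nearly the same CPM in both groups, beside the higher Syt7. Stx16 held 2.71 to 3.34% of the Qa syntaxin level in control and 1.41 to 2.67% in verapamil. The ranges of each of these shares did not overlap between the groups, but these members are examples picked for that. The same held for Stxbp3, Syt1, Doc2b, Syt17, Syt11 and Ppfia2, among others. In CPM, the groups overlapped for Stxbp5l, Exoc1 (not called, log2 fold change 0.08), Syt13 and Stx16, but not for Syt9. Shares within a group are also not independent, since a rise of an abundant member lowers those of the rest.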
